A study of Arabidopsis thaliana with 12 samples.

Results

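In Arabidopsis thaliana of the Ler ecotype, 61 genes had more RNA in petal callus than in the petal explant and less RNA in cotyledon callus than in the cotyledon explant. They were chosen from the measured ratios: the mean log2 ratio of callus over explant was 1 or more in petal and -1 or less in cotyledon, a change of at least 2-fold each way, and the root ratio could take any value. Of 9694 genes that were measured on at least 3 of 4 arrays in each organ, 66 met both thresholds. BCAT4, UGT72E1, UGT74B1, TBL37 and BGLU44 were left out by name, which leaves 61 members, or 0.629% of the genes tested. The petal and cotyledon ratios of the members therefore follow from the choice and are given as a description. The root ratio did not enter the thresholds, although the filter also asked for at least 3 root arrays.

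The tested RNA came from callus formed from petal, cotyledon or root explants during 10 days of culture on callus-inducing medium (CIM), which is rich in auxin. Each was set against RNA from the same kind of organ at day 0, just after excision and with no CIM treatment, called the explant here. Each of the 12 oligonucleotide arrays took RNA of 1 callus sample in one dye and RNA of 1 explant sample in the other, with 4 arrays per organ from biologically independent tissue sets. All groups share the ecotype, and no transgene or mutant is named in the labels. No array set one organ against another, so opposite ratios say how each callus stood against its own explant and not which callus held more of a transcript.

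Callus is a mass of dividing cells that forms when plant tissue is cultured on auxin and cytokinin. In Arabidopsis it arises largely from cells next to the vasculature and shares many genes with the tip of a lateral root. A ratio of callus to explant depends on the RNA of both tissues. In whole tissue, fewer cells of a type and less RNA per cell cannot be told apart.

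A gene symbol was found for 9 of the 61 members, and RefSeq lists a further name for AT4G13840 (CER26) and AT5G55580 (mTERF9). The other members are known here by their locus codes and are given no role. The named members are of several kinds. GLR2.7 and CML41 belong to calcium signalling, BHLH101 to iron supply, OCT5 to membrane transport, CER26 to wax synthesis and EXLB1 to the expansin-like wall proteins. ATERDJ2A is a chaperone partner of the endoplasmic reticulum, CAF1 and mTERF9 act in chloroplast gene expression, HIS1-3 is a linker histone and MSRB5 repairs oxidised methionine.

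Ratios at the 100-fold limit of the table, 13.9% of all values, bound a ratio and were treated as missing. The share ran from 1.99% on cotyledon replicate 1 to 28.2% on petal replicate 2. Of the members, 53 were measured on all 12 arrays, 8 missed at least 1 array, and 60 rested on 1 probe. The direction of the ratios is likely callus over explant, because the labels give callus as channel 1 and call the day-0 tissue the control. Were the table stored in the opposite direction, all signs would turn. The callus dye was Cy5 for replicates 1 and 3 but Cy3 for replicates 2 and 4. Arrays of opposite dye correlated positively within an organ over probes measured on every array, with r from 0.84 to 0.91 in petal, 0.86 to 0.91 in cotyledon and 0.80 to 0.86 in root. With limited values kept, r was 0.44 to 0.94 in petal, -0.15 to 0.63 in cotyledon and -0.66 to -0.35 in root.

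Mean ratios of the members ran from 1.01 to 3.61 in petal, with a median of 1.47, and from -4.02 up to the threshold in cotyledon, with a median of -1.46. Over all tested genes the medians were 0.18 in petal and 0.13 in cotyledon. All 4 petal arrays lay above 0 and every measured cotyledon array below 0 in 48 of the 61 members, a pattern that 3.14% of all tested genes showed. In 59 members every petal array lay above every cotyledon array, against 26.4% of all tested genes. Both counts follow from the rule.

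**Figure D1:**
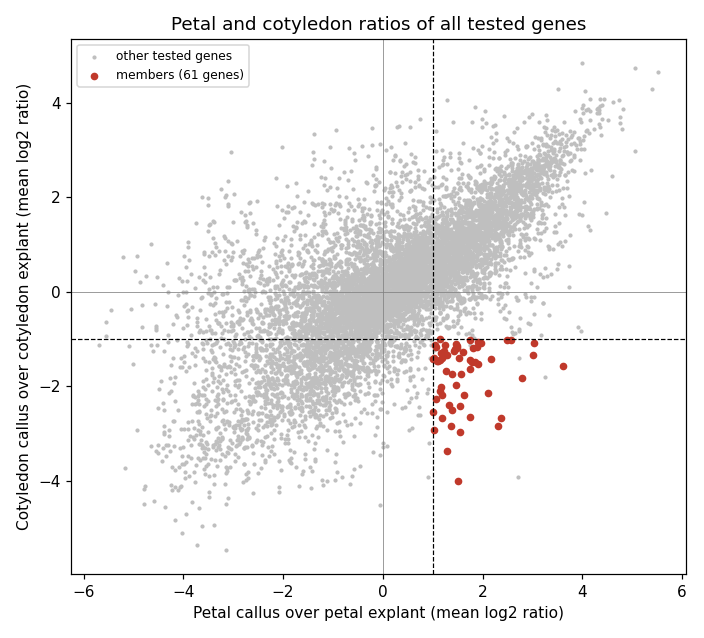
Mean log2 ratio of callus over explant in petal (horizontal axis) and cotyledon (vertical axis) for each tested gene, as 1 point a gene. The 61 members (red) lie right of the dashed line at 1 and below the dashed line at -1, and the 5 genes left out by name are grey in the same corner.

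Genes lay closely on both sides of the thresholds. AT1G26970 at 1.01, AT3G51000 at 1.01 and the histone gene HIS1-3 at 1.03 were just inside the petal threshold, and AT3G02060 at 0.96, AT3G27180 at 0.96 and AT1G10340 at 0.94 were just outside it. In cotyledon, CAF1 lay closest to the threshold from inside, followed by AT3G60420 at -1.02 and AT2G43620 at -1.02, while AT1G56320 at -0.98, AT2G43590 at -0.92 and AT3G55230 at -0.92 were just outside. With thresholds of 1.2 in place of 1 there were 32 members, and with 0.8 there were 93.

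Below, 4 values in a row are replicates 1 to 4, ± gives the SD of the measured arrays (n = 4 unless stated), petal and cotyledon values are plain means, and root values are fitted log2 ratios. GLR2.7 and CML41 were each higher in root callus. GLR2.7 (AT2G29120), a glutamate receptor-like ion channel, had petal ratios of 3.48, 2.90, 3.28 and 2.38, a mean of 3.01 ± 0.48 or 8.06-fold higher in callus than in explant. Its cotyledon ratios were -1.79, -1.97, -1.14 and -0.45, a mean of -1.34 ± 0.69. Its root ratios were 1.91, 1.70, 0.90 and 0.95. All 4 root arrays lay above 0 and below every petal array, and the root ratio of 1.37 ± 0.52 passed the test (limma adjusted p = 0.00134). CML41 (AT3G50770), a calmodulin-like calcium sensor, had ratios of 2.05, 1.47, 1.63 and 1.03 in petal and of -2.26, -3.22, -2.31 and -1.90 in cotyledon. In root they were 2.28, 2.49, 0.26 and 1.85, so replicate 3 stood well below the others, and the fitted ratio of 1.72 ± 1.01 passed (limma adjusted p = 0.00128). Without root replicates 1 and 2 together, the root arrays with the most limited values and a setting chosen after seeing the data, neither gene passed (GLR2.7 at 0.93, limma adjusted p = 0.0716, range 0.000382 to 0.0716 over its alternatives; CML41 at 1.06, 0.0719, range 8.14e-05 to 0.0719).

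BHLH101 (AT5G04150), a transcription factor induced by iron deficiency, had petal ratios of 1.91, 2.10, 2.26 and 1.26 and cotyledon ratios of -1.68, -1.03, -1.10 and -0.90. The 2 organs did not overlap, as in 59 of the 61 members, which follows from the rule. In root the ratios of 0.90, 1.15, 2.13 and -0.06 spread from none to more than 4-fold, and the fitted ratio of 1.03 ± 0.90 passed (limma adjusted p = 0.00878). This call was lost without root replicate 3 (0.67, limma adjusted p = 0.0553) and with root arrays fitted alone (1.03, limma adjusted p = 0.051), in a range from 0.00216 to 0.0833.

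CAF1 and mTERF9 each had a root ratio close to their petal ratio. CAF1 (AT2G20020), a splicing factor for chloroplast introns, had ratios of 1.21, 0.88, 1.30 and 1.22 in petal, of -1.38, -1.16, -0.86 and -0.61 in cotyledon and of 1.15, 1.48, 0.53 and 1.12 in root. Its root ratio of 1.07 ± 0.40 passed (limma adjusted p = 0.000199), next to 1.15 ± 0.18 in petal. mTERF9, named here after its values were seen, acts in the chloroplast as a member of a family related to mitochondrial transcription termination factors. It had ratios of 1.44, 1.09, 0.67 and 0.98 in petal, of -1.31, -1.10, -1.18 and -0.87 in cotyledon and of 1.02, 1.39, 0.40 and 1.57 in root, and the root ratio of 1.10 ± 0.52 passed (limma adjusted p = 0.000187).

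In 3 named members root went with cotyledon. OCT5 (AT1G79410), of the organic cation/carnitine transporter family, had petal ratios of 2.77, 2.41, 2.45 and 1.87, a mean of 2.37 ± 0.37 or 5.18-fold higher. Its cotyledon ratios of -2.72, -2.90, -2.51 and -2.56 lay within 0.4 of each other, with a mean of -2.67 ± 0.18 or 6.37-fold lower. In root the ratios of -1.34, -1.56, -2.03 and -0.96 all lay between those of the other 2 organs, and the ratio of -1.47 ± 0.45 passed (limma adjusted p = 5.77e-05). MSRB5 (AT4G04830), a methionine sulfoxide reductase, had ratios of 1.92, 1.73, 2.78 and 1.44 in petal, of -1.55, -1.69, -0.71 and -0.37 in cotyledon and of -2.38, -2.02, -1.11 and -2.35 in root. Its root ratio of -1.97 ± 0.60 passed (limma adjusted p = 0.000146), and its root and cotyledon arrays overlapped. ATERDJ2A (AT1G79940), a J-domain protein of the endoplasmic reticulum that takes part in protein import, had ratios of 0.97, 1.18, 1.49 and 1.07 in petal, of -2.39, -2.54, -1.94 and -1.87 in cotyledon and of -1.71, -3.58, -1.11 and -1.49 in root. Root replicate 2 was far below the others, and the ratio of -1.97 ± 1.10 passed (limma adjusted p = 0.000265).

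In 3 more named members the root ratio did not pass. HIS1-3 (AT2G18050), a linker histone induced by drought, had petal ratios of 1.05, 1.72, -0.30 and 1.63, with replicate 3 below 0, and cotyledon ratios of -2.53, -3.04, -3.14 and -2.99, a mean of -2.93 ± 0.27 or 7.60-fold lower. Its root ratios were -0.29, 0.37, 0.73 and 1.33 (0.54 ± 0.68, limma adjusted p = 0.129). EXLB1 (AT4G17030), an expansin-like gene, had ratios of 1.41, 2.11, 1.48 and 1.23 in petal and of -0.85, -1.26, -2.54 and -2.27 in cotyledon. Its root ratios split by dye: replicates 1 and 3 (callus in Cy5) gave 0.04 and 0.14, whereas replicates 2 and 4 (Cy3) gave -1.16 and -1.28 (-0.56 ± 0.76, limma adjusted p = 0.134), and passed with root arrays fitted alone (-0.56, limma adjusted p = 0.00891, range 0.00891 to 0.408). CER26, which acts in the elongation of wax precursors and is named here after its values were seen, had ratios of 1.42, 1.11, 1.77 and 1.26 in petal and of -2.37, -2.42, -2.54 and -2.65 in cotyledon, against -0.05, 0.31, 0.01 and -0.56 in root (-0.07 ± 0.36, limma adjusted p = 0.649).

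**Figure D2:**
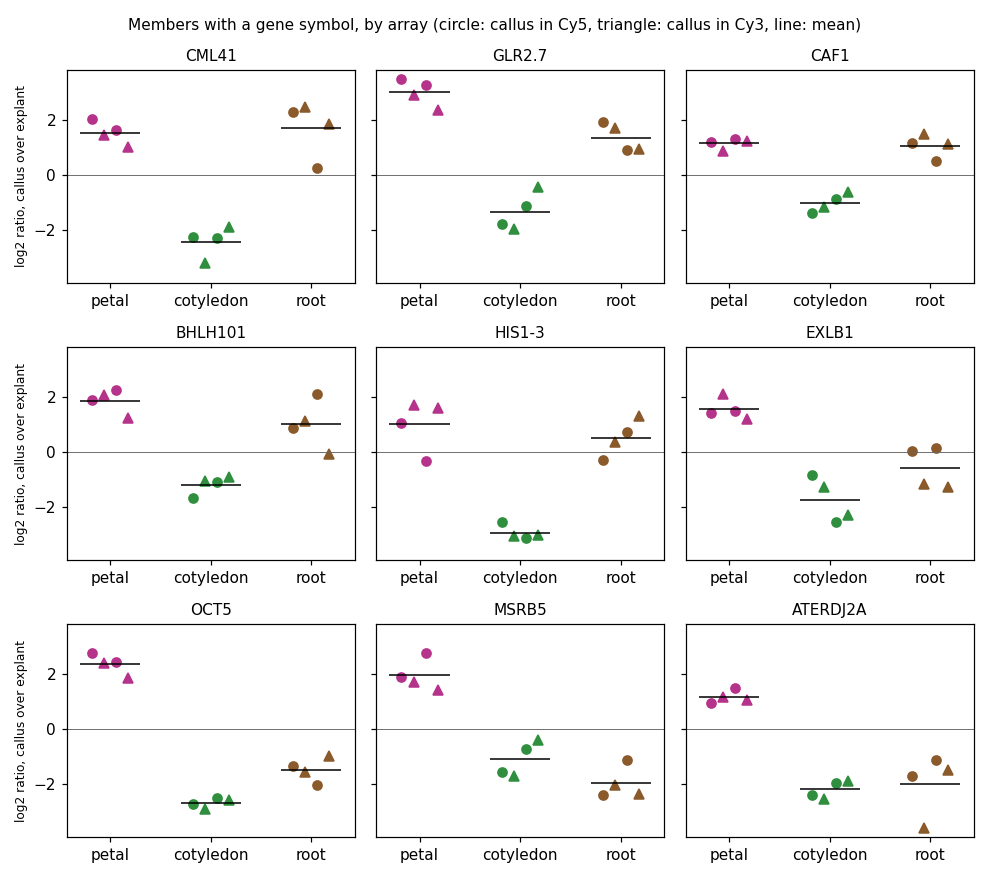
Log2 ratio of callus over explant on each array for the 9 members with a gene symbol, by organ (circles: callus in Cy5, triangles: callus in Cy3, black line: mean of the 4 arrays). Petal lies above cotyledon in each panel, as the rule requires, while the root mean lies above 0 in CML41, GLR2.7, CAF1, BHLH101 and HIS1-3 and below 0 in EXLB1, OCT5, MSRB5 and ATERDJ2A (HIS1-3 and EXLB1 did not pass in root).

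The 3 widest gaps between petal and cotyledon were found in loci without a symbol, with OCT5 next at 5.05. AT1G29660 had the widest, 5.52, with petal ratios of 2.00, 1.56, 1.18 and 1.29 and cotyledon ratios of -3.56, -4.13, -4.31 and -4.07. Its RNA was 16.2-fold lower in cotyledon callus than in the explant, whereas root gave -0.12, 0.28, -0.32 and -0.19 (-0.09 ± 0.26, limma adjusted p = 0.657). AT3G10720 had the highest petal ratio of the members, with 4.14, 3.42, 3.63 and 3.25, a mean of 3.61 ± 0.39 or 12.2-fold higher. In cotyledon it had -2.54, -1.48, -1.75 and -0.49, and in root -1.10, -0.74, -1.28 and -1.70, which passed at -1.20 ± 0.40 (limma adjusted p = 0.00337).

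AT1G62290 had ratios of 2.65, 2.66, 2.35 and 1.56 in petal and of -2.46, -2.79, -2.99 and -3.09 in cotyledon, a gap of 5.14. Root went with petal, at 1.76, 1.59, 2.20 and 0.74 (1.58 ± 0.61, limma adjusted p = 8.48e-05). AT1G09310 stood at 1.47, 0.99, 1.61 and 1.04 in petal, at -2.98, -3.90, -2.88 and -3.70 in cotyledon and at 1.59, 1.09, 1.56 and 0.93 in root (1.29 ± 0.33, limma adjusted p = 2.24e-06). In each organ its arrays with callus in Cy5 were above those with callus in Cy3, and its dye term passed (limma adjusted p = 0.0106). AT2G17650 was the other member with such a dye term (limma adjusted p = 0.0375), so 3.28% of the members passed it, against 3.62% of all tested genes.

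AT3G27100 had petal ratios of 2.70, 3.02, 2.69 and 2.72, with replicate 2 apart from the rest, cotyledon ratios of -1.53, -1.76, -2.44 and -1.54 and root ratios of -1.73, -2.13, -1.70 and -1.90. Root and cotyledon overlapped, at -1.87 ± 0.20 (limma adjusted p = 5.63e-06) and -1.82 ± 0.43. AT3G26460 went the same way, at 2.47, 2.30, 1.69 and 0.52 in petal, -1.37, -2.86, -3.12 and -3.23 in cotyledon and -1.79, -1.57, -1.10 and -1.99 in root (-1.61 ± 0.38, limma adjusted p = 0.0013). AT2G21080 had 1.49, 1.82, 1.15 and 1.72 in petal, -3.07, -3.26, -2.89 and -2.64 in cotyledon and, with a root ratio nearer to petal, 0.35, 1.27, 0.16 and 0.99 in root (0.69 ± 0.52, limma adjusted p = 0.00177).

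The root comparison asked whether these genes also changed as root tissue became callus. In root callus 22 members were higher and 17 lower, and 22 did not pass (limma with Benjamini-Hochberg adjustment over 9694 genes, adjusted p under 0.05). The 22 higher members are 36.1% of the 61, against 39.9% of all tested genes, and the 17 lower members are 27.9%, against 23% of all tested genes. In either direction 63.9% of the members passed, against 62.8% of all tested genes, so neither share stands far from the background. With arrays centred on the median of their tested genes, which takes off a median root ratio of 0.18 over all genes, 21 members were higher and 17 lower, while over all genes 2856 were higher and 2912 lower in place of 3864 and 2226. All 17 lower members and 20 of the 22 higher ones had the same sign on every measured root array. All measured root arrays lay above 0 in 24 members, against 43.2% of all tested genes, and below 0 in 19, against 26.1%.

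Root ratios of the members reached far to both sides. The plain mean in root was 1 or more in 17 members, or 27.9%, against 11.9% of all tested genes, and -1 or less in another 17, against 13.3%. The median size of the fitted ratio without its sign was 1.07 in the members and 0.57 over all tested genes, while the signed medians were 0.19 and 0.18. The spread was wider too: the median SD over root arrays was 0.51 in the members and 0.28 over all tested genes. These are descriptions with no test of their own.

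**Figure D3:**
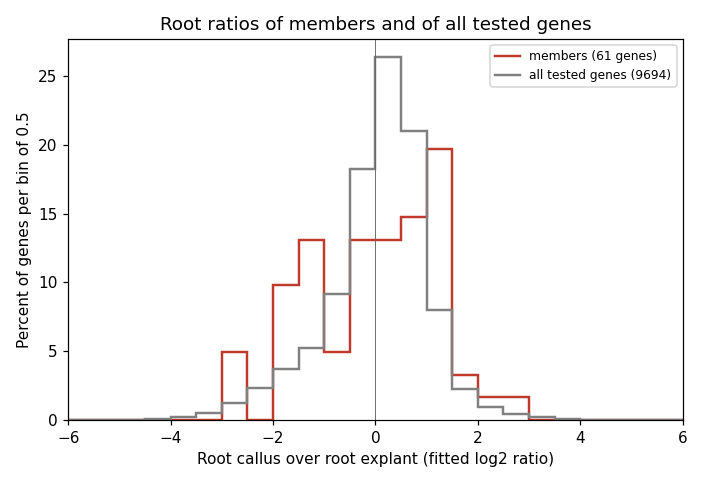
Percent of genes in bins of 0.5 of the fitted root log2 ratio (callus over explant) for the 61 members (red) and for all 9694 tested genes (grey). The members hold larger shares below -1 and above 1 than all genes do, with 27.9% at each side by plain means. All genes, unlike the members, were not chosen for large ratios in petal and cotyledon.

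Of the members that were higher in root, AT4G00750 had the highest ratio, with 2.70, 2.76, 2.37 and 2.26 in root, or 5.75-fold (2.52 ± 0.25, limma adjusted p = 7.73e-07). Of its petal arrays, at 2.33, 1.87, 1.67 and 1.79, only replicate 1 reached into the range of its root arrays, and its cotyledon ratios of -1.05, -1.07, -1.04 and -1.11 were the most even of the members. AT3G60420 came next at 3.95, 2.78, 0.47 and 2.07 in root (2.32 ± 1.45, limma adjusted p = 0.00998). Its 4 root arrays differed by more than 3 on the log2 scale, and the call was lost without root replicate 1 (1.74, limma adjusted p = 0.0638, range 0.00366 to 0.264). CML41, AT1G62290, AT5G62280 and GLR2.7 followed. AT5G62280 had ratios of 0.81, 1.99, 1.35 and 1.53 in root (1.42 ± 0.49, limma adjusted p = 7.32e-05), next to 1.46, 1.94, 2.10 and 1.50 in petal and -1.47, -1.08, -1.07 and -0.48 in cotyledon.

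Further higher members had smaller root ratios. AT4G04630, AT5G47590, AT4G29400, AT2G17650, AT2G05530 and AT5G16810 lay between 1.00 and 1.30, and AT5G38780, AT4G37920, AT1G22570, AT2G43620 and AT3G22104 between 0.48 and 0.83. AT2G43620, at 2.90, 2.03, 2.53 and 2.47 in petal but 0.42, 1.18, 0.70 and -0.00 in root, was close to the threshold (0.57 ± 0.50, limma adjusted p = 0.029). It lost its call without root replicate 1, 2 or 3 (0.63, 0.35 and 0.52, limma adjusted p = 0.053, 0.172 and 0.0984) and with other centrings, in a range from 0.00943 to 0.307. AT5G38780 was measured on 3 root arrays. Keeping limited ratios gave it a root ratio of -1.05 in place of 0.83 (limma adjusted p = 0.532, range 0.00132 to 0.532). AT5G38780 also did not pass with root arrays fitted alone (0.77, limma adjusted p = 0.0864). Nor did it pass without root replicates 1 and 2 together (0.54, limma adjusted p = 0.0595). With each array centred on its median over all deposited values it did not pass either (0.65, limma adjusted p = 0.101). AT3G22104 and AT4G37920 did not pass with that centring (0.41 and 0.54, limma adjusted p = 0.12 and 0.107, ranges 0.00155 to 0.12 and 0.0016 to 0.107).

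Of the members that were lower in root, AT2G16005 had the lowest ratio, at -2.57, -3.32, -1.20 and -4.15 in root (-2.81 ± 1.25, limma adjusted p = 0.00143). Its petal ratios of 1.90, 3.01, 0.19 and 0.66 and its cotyledon ratios of -0.19, -0.82 and -2.62 (n = 3, replicates 1, 3 and 4) were also widely spread. AT2G23680 was far more even in root, at -2.64, -3.07, -2.61 and -2.85 (-2.79 ± 0.21, limma adjusted p = 3.29e-05), as in cotyledon at -2.97, -2.81, -2.12 and -1.72, but its petal ratios were -0.07, 1.97, 1.79 and 1.64, with replicate 1 apart. AT1G56630 gave -2.41, -2.79, -1.69 and -3.15 in root (-2.51 ± 0.63, limma adjusted p = 0.00645). ATERDJ2A and MSRB5 came next, followed by AT5G39580 at -1.47, -1.31, -2.45 and -2.51 (-1.93 ± 0.63, limma adjusted p = 0.000649), the 1 member measured by more than 1 probe.

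The remaining lower members lay between -1.87 and -1.16 in root. They were AT5G14730, AT3G27100, AT3G26460, OCT5, AT3G58550, AT1G26970, AT1G17970, AT1G31540, AT5G24070, AT3G10720 and AT5G07820. AT3G58550 passed narrowly (-1.46 ± 0.51, limma adjusted p = 0.0457) and lost its call without root replicate 1, 3 or 4 (-1.18, -1.27 and -1.60, limma adjusted p = 0.168, 0.149 and 0.0799), among others, in a range from 0.000921 to 0.194. In all, 14 higher and 14 lower members kept their calls under every alternative in which they were fitted. The other 11 called members lost theirs under at least 1, AT1G56630 and AT5G14730 among them only without root replicates 1 and 2 together (-2.42 and -1.75, limma adjusted p = 0.0813 and 0.0551, ranges 4.37e-05 to 0.0813 and 0.00121 to 0.0551).

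**Figure D4:**
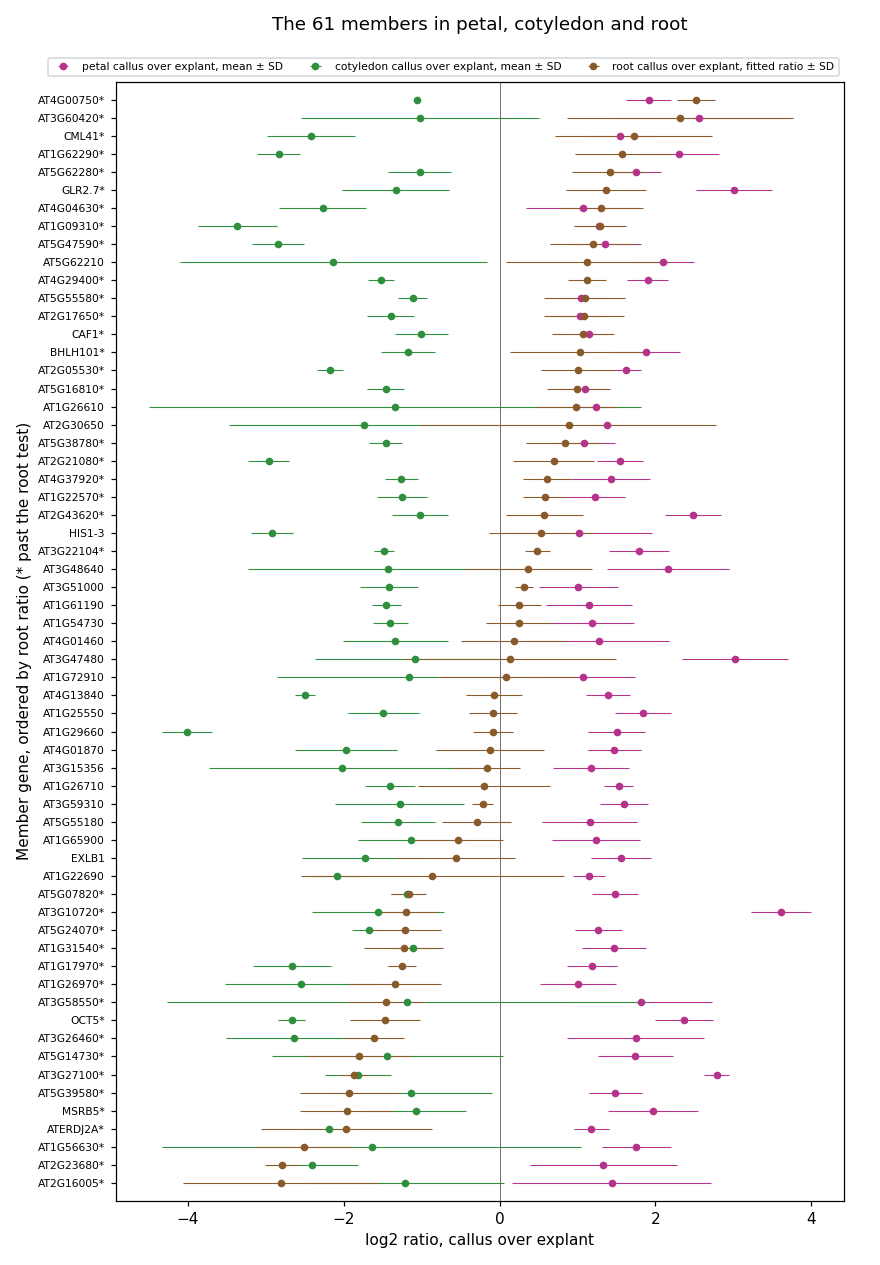
Log2 ratio of callus over explant of each of the 61 members in petal, cotyledon and root, as the mean (fitted ratio in root) with bars of 1 SD over the measured arrays, ordered by the root ratio. Petal points lie right of 1 and cotyledon points left of -1 by the rule, and root runs from 2.52 in AT4G00750 to -2.81 in AT2G16005.

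The 22 members that did not pass in root had fitted ratios from -0.86 to 1.13, with a median of 0.00. A missed threshold does not show that root was unchanged in them: their median SD in root was 0.62, against 0.49 in the higher and 0.51 in the lower members. AT5G62210, at 2.26, 0.08, 0.41 and 1.75 in root, had the highest ratio of these (1.13 ± 1.05, limma adjusted p = 0.0738) and passed without root replicate 3 (1.59, limma adjusted p = 0.0326), without cotyledon replicate 1 (1.13, limma adjusted p = 0.0254) and with the replicate number as a block in place of the dye term (1.13, limma adjusted p = 0.0428), in a range from 0.0254 to 0.573. AT1G22690 had the lowest through 1 array, with -0.08, -3.36, -0.35 and 0.34 (-0.86 ± 1.69, limma adjusted p = 0.127). It passed without root replicate 4 (-1.40, limma adjusted p = 0.0261, range 0.0261 to 0.991), and stood at -0.01 without root replicate 2. AT1G25550, by contrast, was even and near 0 in root, at -0.17, -0.43, -0.04 and 0.31 (-0.08 ± 0.31, limma adjusted p = 0.728), next to 2.17, 2.01, 1.34 and 1.86 in petal and -1.72, -1.92, -1.46 and -0.87 in cotyledon. The test takes 1 spread per gene over all 12 arrays, so petal and cotyledon arrays enter it too. AT1G26610, at 1.07, 0.24, 1.40 and 1.23 in root, did not pass (0.98 ± 0.51, limma adjusted p = 0.202). It passed without cotyledon replicate 2, which was at -4.99 (limma adjusted p = 0.00163). With root arrays fitted alone it passed too (limma adjusted p = 0.0176, range 0.00163 to 0.527). Over all members, 20 were higher and 18 lower in that fit.

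By mean value, root lay between cotyledon and petal in 46 members, above petal in 6 and below cotyledon in 9, and it was nearer to petal in 35 and nearer to cotyledon in 26. By the rule, any root mean between -1 and 1 lies between the other 2 organs, which covers 27 of the 46. The count of 46 thus follows in large part from the choice of members. Over all tested genes, 11.9% had a root mean of 1 or more and 13.3% one of -1 or less. Across the 61 members, which are not independent and were cut by both thresholds, the root ratio had almost no relation to the petal ratio (Pearson's r = 0.00, Spearman's rho = 0.01) or to the cotyledon ratio (0.03 and 0.06). Members that were higher, lower or not passing in root had median petal means of 1.55, 1.49 and 1.33 and median cotyledon means of -1.43, -1.64 and -1.44.

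In 13 members the arrays did not all lie on the side of 0 that the rule asks of the mean. HIS1-3 and AT2G23680 each had 1 petal array below 0, and the other 11 had at least 1 cotyledon array above 0. These 11 fell into 2 kinds. In 6 of them, cotyledon replicates 1 and 2 were both below replicates 3 and 4. AT3G48640, for example, had -2.85 and -2.92 on replicates 1 and 2 and -0.77 and 0.83 on replicates 3 and 4, and AT1G72910 had -2.81 and -2.21 and then -0.57 and 0.93. AT3G47480, with 3.87, 3.05, 2.98 and 2.20 among the highest petal ratios, had -1.70, -2.59, -0.13 and 0.09 in cotyledon. AT3G60420, AT5G14730 and AT5G39580 showed the same order. Among the 57 members measured on all 4 cotyledon arrays, 25 had replicates 1 and 2 both below replicates 3 and 4, or 43.9%, against 17.9% of the tested genes measured there. What sets these arrays apart is not given by the labels and was not tested.

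In the other 5, the measured arrays with callus in Cy3 were below those with callus in Cy5, and the mean rested on 1 or 2 very low values. AT1G26610 had 0.34, -4.99 and 0.61 on cotyledon replicates 1 to 3, and AT3G58550 had 0.32, 0.83 and -4.74 on replicates 1, 3 and 4. AT1G56630 had 0.18, -1.38, 0.16 and -5.53. AT2G30650, at -0.98, -2.36, 0.19 and -3.81, and AT5G62210, at 0.07, -2.74 and -3.73 (replicates 1, 2 and 4), were similar. The dye term, fitted over all 3 organs, did not pass in any of the 5 (limma adjusted p from 0.137 to 0.374). Over all members, this order of the dyes in cotyledon was seen in 9, or 14.8%, against 21.0% of all tested genes. The median SD in cotyledon was 1.73 in these 11 members and 0.34 in the rest. Without the 13 members, 48 remained, of which 21 were higher, 12 lower and 15 not passing in root.

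**Figure D5:**
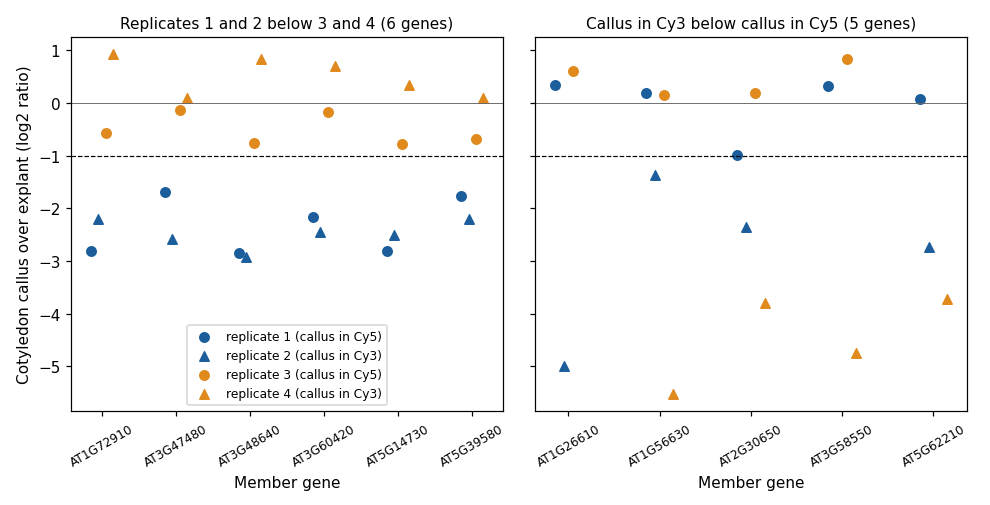
Cotyledon log2 ratio of callus over explant on each array for the 11 members with at least 1 cotyledon array above 0 (blue: replicates 1 and 2, orange: replicates 3 and 4, circles: callus in Cy5, triangles: callus in Cy3, dashed line: the threshold at -1). In the left panel replicates 1 and 2 are low in 6 genes, and in the right panel the arrays with callus in Cy3 are low in 5 genes.

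Leaving out 1 petal or cotyledon array at a time, 35 of the 61 genes met both thresholds each time, and 26 dropped out at least once. The filter of at least 3 arrays per organ was not applied again here. AT5G62210, with no value on cotyledon replicate 3, thus stayed among the 35 on fewer than 3 cotyledon arrays. Of the 35, 14 were higher, 10 lower and 11 not passing in root. HIS1-3, CAF1, MSRB5 and mTERF9 were among the 26, and GLR2.7, CML41, BHLH101, OCT5, EXLB1, ATERDJ2A and CER26 among the 35. Over the members as a whole, the median difference between arrays with callus in Cy5 and in Cy3 was 0.04 in petal, -0.17 in cotyledon and 0.02 in root, next to -0.05, -0.06 and -0.04 over all tested genes.

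The members lay on all 5 chromosomes, with 18, 10, 12, 9 and 12 on chromosomes 1 to 5. The shares of 29.5, 16.4, 19.7, 14.8 and 19.7% were near those of all tested genes, at 26.0, 14.7, 21.1, 14.6 and 23.3%. By gene order in the TAIR10.1 annotation, AT5G62210 and AT5G62280 were the 1 pair with fewer than 10 protein-coding genes between them, namely 6. Both had positive mean ratios in petal and root, but AT5G62210 did not pass in root.

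None of the genes in 10 pathway lists was a member, but few of them were tested. A listed gene went untested where no probe was paired with it or where too few arrays measured it. With members at 0.629% of the tested genes, lists this short would rarely hold one. The absence of members thus says nothing about these pathways. In sulfate assimilation, 2 of 10 genes were tested, and both had higher ratios in petal than in cotyledon. SIR (AT5G04590), the sulfite reductase, was at 1.54 ± 0.26 in petal callus and -0.10 ± 0.21 in cotyledon callus, a difference of 1.64 (limma adjusted p = 4.19e-05). APS3 (AT4G14680), an ATP sulfurylase, was at 0.37 ± 0.64 in petal and -0.92 ± 0.57 in cotyledon, a difference of 1.29 (limma adjusted p = 0.00381). Of these 4 ratios, SIR in petal and APS3 in cotyledon passed, next to 45.2% of all tested genes higher in petal and 30.3% lower in cotyledon. The share of all tested genes that passed the difference was not counted, and 2 genes do not describe the pathway. By array order, every petal array lay above every cotyledon array in 26.4% of all tested genes. In glucosinolate synthesis 1 of 27 listed genes was tested, AOP3 (AT4G03050), which makes hydroxyalkyl side chains, at -0.07 ± 0.48 in petal and -4.51 ± 0.92 in cotyledon. Outside that list, BCAT4 and UGT74B1, which also act in glucosinolate synthesis, met both thresholds (2.71 and -3.93 for BCAT4, 1.74 and -1.12 for UGT74B1, in petal and cotyledon) but were left out by name.

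The 8 tested photosynthesis genes, of 20 listed, showed another pattern: all 8 were lower in petal callus, against 33.4% of all tested genes. In cotyledon callus 7 were lower, against 30.3%, and in root callus all 8, against 23%. The clock gene GI (AT1G22770) was at -0.79 ± 0.99 in petal and -0.95 ± 0.14 in cotyledon. The type-A response regulator ARR16 (AT2G40670) was at -4.55 ± 2.14 in petal. In cotyledon ARR16 was at -0.77 ± 0.62, which did not pass (limma adjusted p = 0.239). None of the listed genes of jasmonate, flavonoid, nitrate, wax and cutin or salicylate pathways was tested, nor were those of stomatal and vascular marker lists. Ratios carry no level, so the organ labels could not be checked by the levels of marker genes. There were 6 tested markers. The epidermal gene ACR4 (AT3G59420) was at -0.77 ± 0.17 in petal and 0.01 ± 0.40 in cotyledon, where it did not pass (limma adjusted p = 0.945). Both tested root markers were higher in petal and cotyledon callus, with the root gene EXPA7 (AT1G12560) at 1.72 ± 0.26 and 1.75 ± 0.39 (40.7% of all tested genes were higher in cotyledon) and AT5G48940, listed as RCH1, at 4.13 ± 0.93 and 3.37 ± 0.82. In root EXPA7 was at -0.25 ± 0.68, which did not pass, and AT5G48940 at 1.70 ± 0.41, which did. The anther and pollen marker AT5G45880, listed as LAT52, was at -3.72 ± 1.92 in petal and -1.02 ± 1.79 in cotyledon (n = 3), and the mesophyll gene RCA (AT2G39730) at -3.30 ± 1.19 and -2.87 ± 1.92. The petal gene RBE (AT5G06070) was at -0.74 ± 2.44 in petal and 1.31 ± 0.58 in cotyledon, and neither passed (limma adjusted p = 0.344 and 0.115). None of the 6 was a member.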

How the data were processed

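The authors deposited 1 table of log2 ratios, 1 column per array. That unit follows from where the values stop, the log2 of 100. How the authors corrected background, normalized, centred and filtered is not stated in these sources. Scanner intensities, and with them signal over background, were not analysed here. Of 26090 probes, 13960 had 1 gene in the platform's table, 13912 of them matched to RefSeq (TAIR10.1) and 48 not. No probe sequences were used.

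Values of 6.64 or more in size were set to missing, probes were averaged per gene on each array, and genes with at least 3 of 4 arrays in every organ were kept. limma 3.58.1 in R 4.3.3 fitted 1 coefficient per organ and a dye term per gene over the 12 arrays. Root coefficients were tested against 0 (2-sided), with Benjamini-Hochberg adjustment over 9694 genes. The fit was also run on simulated ratios with known root changes and normal noise of 1 spread per gene in all organs. That run cannot show how the fit behaves where the spread differs between organs or 1 array is extreme.

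Members were named if they had a symbol, were among the 10 widest gaps between petal and cotyledon, were among the 6 highest or lowest root calls with 1 sign on all arrays, or were nearest the thresholds. Other members are named from values. The members and lists were chosen with earlier results of these data known. The number of arrays limits the precision. Alternatives are given at the end.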

Additional observations from a re-analysis of the deposited data

Results flagged for a closer look

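In 5 of 175 sets of 4 arrays, 1 array stood apart from the other 3 by Dixon's criterion, which chance alone gives in about 1 of 20 sets. AT2G23680 was at -0.07 on petal replicate 1, against 1.64 to 1.97 on the others, and AT3G60420 was at 0.90 on petal replicate 4, against 2.91 to 3.27. AT5G07820 was at 1.04 on petal replicate 4, against 1.57 to 1.66, and AT3G27100 was at 3.02 on petal replicate 2, against 2.69 to 2.72. AT5G24070 was at -1.36 on cotyledon replicate 1, against -1.82 to -1.74.

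In 48 members every petal array was above 0 and every measured cotyledon array below 0, so the organs moved in opposite directions. This follows from the choice of members, and the difference was not tested. Among probes that the platform's table pairs with no gene, 68 of 8283 met the same thresholds, or 0.821%, beside 0.681% of the named genes. Their mean root ratios ran from -4.43 to 2.43, with a median of -0.25.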

How the results depend on the processing

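The number of members was 93 with a threshold of 0.8 and 32 with 1.2. It was 53 (44 shared with the 61) with arrays centred on tested genes, 67 (49 shared) with centring on all values and 89 (60 shared) with limited ratios kept. Without 1 cotyledon or petal array it ran from 55 to 74, with the filter on measured arrays not applied again. Members higher in root ran from 18 to 23 and members lower from 14 to 18 over the other alternatives, and were 15 and 14 without root replicates 1 and 2 together, an alternative added after the data were seen. Over all genes, 2323 were higher in root with centring on all values, in place of 3864. The median root ratio of the members ran from 0.01 to 0.32 without 1 root array and was -0.07 with limited ratios kept. Of the root values of single members under alternatives, 1291 kept their side of the threshold and reversed no call, 34 lost a call and 8 gained one. Of the 1291, 22 turned sign, in 9 members that did not pass in root. AT5G38780 reversed to -1.05 with limited ratios kept, where its limited value on root replicate 2 entered. With the replicate number as a block, 23 members were higher and 17 lower in root, and 3785 and 2209 of all genes. AT5G62210 was the 1 member whose call the block changed. Arrays of the same number in different organs also share a dye. Their deviations from the organ means correlated at -0.02 to 0.30, and at -0.16 to 0.27 within a dye. Pairing was to be taken as given only if all 12 pairs lay above 0.1, and 9 did; 13 of 24 comparisons were highest for the array's own number. Whether the numbers pair the samples was thus not settled, and the fit without the block was kept.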

Other observations

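By the limma test in both organs (adjusted p under 0.05), 289 of 9694 genes were higher in petal callus and lower in cotyledon callus, and 314 had the reverse pattern. With thresholds on the means, 124 genes had a petal ratio of -1 or less and a cotyledon ratio of 1 or more. Among the 4051 genes measured on too few arrays, 46 met the thresholds of the members on the arrays that measured them.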
